A study of Mus musculus with 12 samples.

Results

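Interferons are antiviral signalling proteins, and cells that receive them switch on a large set of genes whose products block viral entry, translation, replication and release. The effector genes examined here are 41 such genes, chosen by name with earlier results of these data known. The counts and shares below therefore describe this list and do not test it. They comprise the oligoadenylate synthetases, the Ifit RNA-binding proteins, helicases, the ISG15 conjugation enzymes, Trim ubiquitin ligases, Parp enzymes and others. Of the 41, 39 had a probe set annotated with their symbol alone, 1 probe set per gene, out of 19937 genes measured by such probe sets. Isg15 and Ifi44 had none and were not analysed here.

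Expression was measured in stable derivatives of the 4T1 line, which comes from a mouse mammary carcinoma with BALB/cfC3H genetic background, on Affymetrix Mouse Gene 1.0 ST arrays, with 3 arrays in each of 4 lines. The lines are a control line and 3 lines carrying the Mkl1 constructs FL, mutB1 and ΔSAP. The cells for all 12 arrays were kept in 0.03% serum for 48 h before RNA was taken. Mkl1, now named Mrtfa, is an actin-regulated coactivator of the transcription factor Srf. The labels do not spell out the construct names. Here FL is taken to mean full length, B1 as the basic region of Mkl1 known for contact with Srf, and SAP as the putative DNA-binding domain of the same name, deleted in ΔSAP. The sources used here do not say what the control line carries or how the constructs were delivered.

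Each construct is represented by a single stable line, so construct and line cannot be told apart. The p-values below test a difference of line means against the spread between arrays of the same line, shared over the 4 lines. They do not cover the spread between separate lines of 1 construct. All values are log2 signals made by the authors with RMA, and a change is the difference of 2 line means in log2 units, followed by its standard error (SE), so that 1 log2 unit is a 2-fold difference. "Rose" and "fell" are used where the adjusted p of the limma fit over all 34760 probe sets was at most 0.01. The filters in the series' design text also require a 2-fold difference or more and a log2 mean, here over the 12 arrays, no lower than 4. RMA gives no detection call, so a line mean under 6.35, the lowest of the array medians (range 6.35 to 6.45), is called low and may be background.

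In the classical pathway, type I interferon binds the receptor pair Ifnar1 and Ifnar2. The kinases Jak1 and Tyk2 then phosphorylate Stat2, which with Irf9 is part of a complex that binds interferon-stimulated response elements in the promoters of these genes. The core of such an element is a pair of GAAA repeats. Several of the products also sense viral nucleic acid or raise the supply of pathway factors, so that the same genes can respond to interferon and sustain the response to it.

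Promoter sequences from RefSeq (GRCm38.p6, 250 bases before to 50 after a gene's start) were held for 36 of the 41 genes, in 43 windows. A pair of GAAA repeats with any 2 bases between them, on either strand and with overlapping matches allowed, was in 14 of these windows, or 32.6%. It was in 1131 of all 32851 windows of the same length, or 3.44%. The 13 genes with a match were Oas1a, Oas3, Eif2ak2, Ifit1, Ifit3, Ddx60, Rsad2, Bst2, Ifitm3, Isg15, Trim21, Trim30a and Trim30d. The 6 of them whose probe sets ranked highest in the F test over the 4 lines are printed next, as the genes with a match whose RNA differed most clearly between lines. Capitals mark each match, and a match that reads as TTTC repeats lies on the opposite strand.
Trim30a, chr7:104465144-104465443, minus strand: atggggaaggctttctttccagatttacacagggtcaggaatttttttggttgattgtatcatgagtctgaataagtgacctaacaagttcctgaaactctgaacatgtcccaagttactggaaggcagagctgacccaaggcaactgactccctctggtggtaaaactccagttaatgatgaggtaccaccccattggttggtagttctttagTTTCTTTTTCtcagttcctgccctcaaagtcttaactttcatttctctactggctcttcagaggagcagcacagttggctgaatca
Rsad2, chr12:26456403-26456702, minus strand: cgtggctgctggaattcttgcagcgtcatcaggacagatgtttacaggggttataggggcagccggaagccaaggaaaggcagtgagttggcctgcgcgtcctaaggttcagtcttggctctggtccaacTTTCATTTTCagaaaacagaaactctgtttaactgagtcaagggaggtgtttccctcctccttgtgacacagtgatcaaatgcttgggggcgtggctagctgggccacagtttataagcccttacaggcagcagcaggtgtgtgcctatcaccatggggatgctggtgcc
Ifit3, chr19:34583279-34583578, plus strand: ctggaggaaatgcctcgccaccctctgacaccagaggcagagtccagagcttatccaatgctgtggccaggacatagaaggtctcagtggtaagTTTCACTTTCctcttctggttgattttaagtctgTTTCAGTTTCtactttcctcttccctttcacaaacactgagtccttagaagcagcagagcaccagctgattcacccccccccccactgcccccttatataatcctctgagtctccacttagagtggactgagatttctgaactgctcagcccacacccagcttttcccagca
Bst2, chr8:71537423-71537722, minus strand: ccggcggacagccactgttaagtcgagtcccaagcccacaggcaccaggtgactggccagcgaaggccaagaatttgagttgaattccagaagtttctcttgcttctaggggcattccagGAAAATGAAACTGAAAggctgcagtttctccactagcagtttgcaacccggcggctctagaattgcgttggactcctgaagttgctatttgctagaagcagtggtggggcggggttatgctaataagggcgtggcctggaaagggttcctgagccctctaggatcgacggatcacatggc
Oas3, chr5:120777610-120777909, minus strand: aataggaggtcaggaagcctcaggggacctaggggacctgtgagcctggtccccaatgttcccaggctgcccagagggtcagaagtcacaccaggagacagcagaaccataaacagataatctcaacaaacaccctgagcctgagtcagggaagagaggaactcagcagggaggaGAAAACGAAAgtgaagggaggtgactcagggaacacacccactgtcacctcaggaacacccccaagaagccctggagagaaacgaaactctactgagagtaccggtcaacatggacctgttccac
Ddx60, chr8:61927837-61928136, plus strand: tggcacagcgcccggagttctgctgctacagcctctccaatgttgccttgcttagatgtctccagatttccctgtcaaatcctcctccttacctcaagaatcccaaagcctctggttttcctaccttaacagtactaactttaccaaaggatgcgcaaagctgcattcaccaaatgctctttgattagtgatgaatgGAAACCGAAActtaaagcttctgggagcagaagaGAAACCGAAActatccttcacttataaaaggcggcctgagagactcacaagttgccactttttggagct

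These letters are a description of the windows and not evidence of a bound factor. The palindrome TTCNNNGAA, the core of the gamma-activated site, was in 8 of the 43 windows (18.6%) against 8.3% of all windows. The CArG box, the Srf binding motif, was searched for after the expression values were seen. It was in 0 of the 43 windows, against 1.63% of all windows, which says only that these letters were not in these windows. Having the spaced pair and being strongly changed were not the same thing among the 39 genes. Ifitm3 has 2 matches and the smallest rise in FL, while Ifi44l, with the largest, has none in its window. Trim30a has 2 matches, of which 1 lies in a second window that is not printed.

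**Figure D1:**
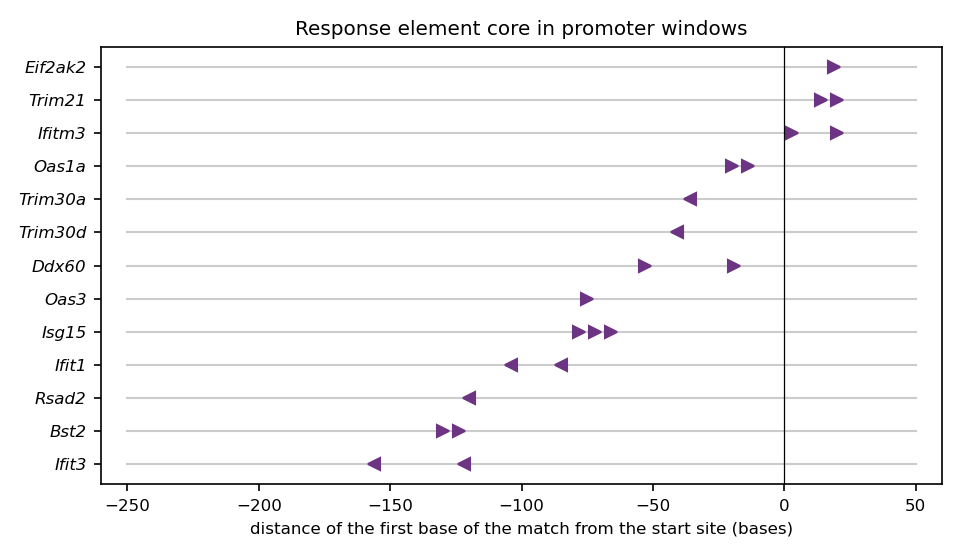
Positions of the spaced GAAA pair in the first promoter window of each of the 13 genes with a match. The x axis is the distance in bases from the annotated start, and the direction of each triangle gives the strand of the match.

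All 39 genes rose in the FL line over control, where 9.61% of all probe sets were higher and 10.4% lower. The median change of the genes was 1.79, and that of all probe sets -0.01. In mutB1 38 of 39 rose, against 5.83% of probe sets higher and 6.89% lower, with a median change of 1.73. In ΔSAP 39 of 39 rose, against 6.96% higher and 7.83% lower, with a median of 1.27. None of the 39 fell in any of the 3 lines, and 38 rose in all 3, a pattern that 2.29% of all probe sets showed. These 3 comparisons share the control arrays, so their counts do not support each other.

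Under the design text's filters, 32 genes rose in FL (1.21% of all probe sets rose by these filters and 0.621% fell), 30 in mutB1 (0.716% and 0.489%) and 24 in ΔSAP (0.958% and 0.386%). There were 23 genes past these filters in all 3 lines, against 0.377% of all probe sets. The F test over the 4 lines called each of the 39 genes, against 27.7% of probe sets. The array median over the 39 genes was 9.32 to 9.43 for control, 11.19 to 11.23 for FL, 11.04 to 11.13 for mutB1 and 10.80 to 10.87 for ΔSAP. The 4 lines thus did not overlap on this measure.

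**Figure D2:**
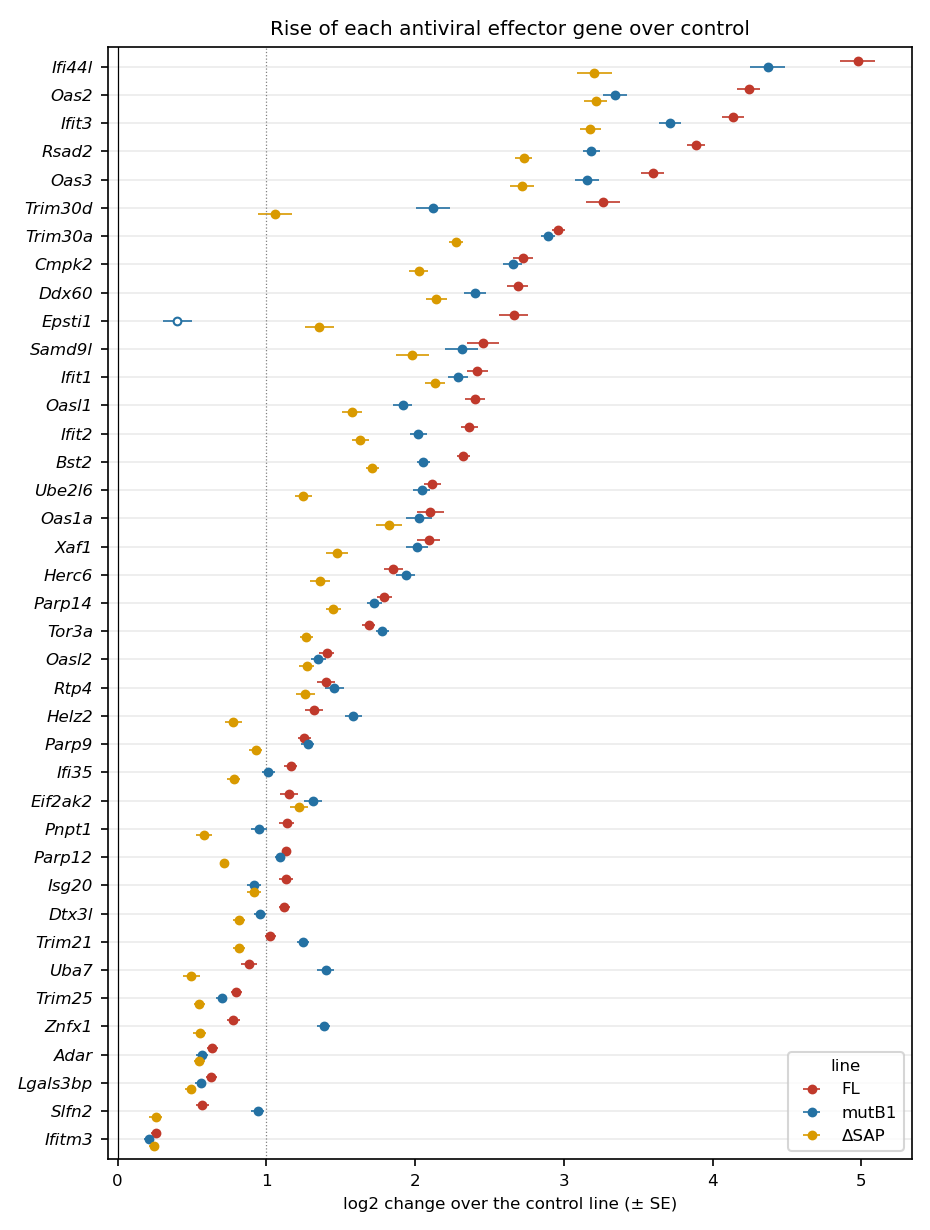
Change of each of the 39 genes over the control line in FL, mutB1 and ΔSAP, in log2 units on the x axis, with genes ordered by their rise in FL. Bars are the SE of the limma fit, filled points have an adjusted p of at most 0.01, the dotted line marks a change of 1 (2-fold), and the single open point among them is Epsti1 in mutB1.

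Oligoadenylate synthetases make the second messenger that activates the latent ribonuclease RNase L. Oas2, one of these enzymes, had log2 signals of 6.74, 6.95 and 6.72 in the control arrays, 11.07, 11.05 and 11.03 in FL, 10.29, 10.15 and 10.00 in mutB1, and 10.00, 9.99 and 10.06 in ΔSAP. FL stood above every other array, and the mutB1 and ΔSAP arrays overlapped. The changes over control were 4.24, 3.34 and 3.22 (SE 0.08, adjusted p 2.15e-10, 1.08e-09 and 1.91e-09), and the first is an 18.9-fold difference. Oas3, a larger enzyme of the family, rose by 3.60, 3.16 and 2.72 (SE 0.08) in FL, mutB1 and ΔSAP. Oas1a rose by 2.10, 2.03 and 1.82 (SE 0.09).

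The Oas-like proteins carry ubiquitin-like domains in addition. Oasl1, which lacks synthetase activity and in mice restrains translation of Irf7, rose by 2.40, 1.92 and 1.58 (SE 0.07) in the same order of lines. Oasl2 rose by 1.41, 1.35 and 1.27 (SE 0.05). Eif2ak2, the kinase PKR that halts translation on binding double-stranded RNA, rose by 1.15, 1.31 and 1.22 (SE 0.06), and was the 1 gene of the 39 whose FL mean was the lowest of the 3 construct lines. Adar, which edits adenosine in double-stranded RNA, rose by 0.64, 0.57 and 0.55 (SE 0.04). Pnpt1, an exoribonuclease of mitochondria, rose by 1.14, 0.95 and 0.58 (SE 0.05).

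Ifit proteins bind viral RNA ends and block its translation. Ifit3 had log2 signals of 7.72, 7.90 and 7.61 in control, 11.86, 11.84 and 11.94 in FL, 11.54, 11.47 and 11.36 in mutB1, and 10.89, 10.95 and 10.92 in ΔSAP. The 4 lines did not overlap, and every ΔSAP array lay between control and mutB1. Over control, Ifit3 rose by 4.14, 3.72 and 3.18 (SE 0.07, adjusted p 1.67e-10, 4.34e-10 and 1.4e-09). Ifit1 rose by 2.42, 2.29 and 2.13 (SE 0.07), and Ifit2 by 2.36, 2.02 and 1.63 (SE 0.06). Ifit genes are close relatives, as are the Oas genes and the Trim30 genes, and signal shared between their probes cannot be separated in these values.

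Among helicases and other RNA factors, Ddx60, a helicase linked to RNA sensing, rose by 2.69, 2.40 and 2.14 (SE 0.07) in FL, mutB1 and ΔSAP. Samd9l, a growth-restraining antiviral factor, rose by 2.46, 2.31 and 1.98 (SE 0.11). Isg20, an exonuclease, rose by 1.13, 0.91 and 0.91 (SE 0.05). The other 2 genes of this group were highest in mutB1. Helz2, a helicase and nuclear coactivator, rose by 1.32, 1.58 and 0.78 (SE 0.06), and Znfx1, a mitochondrial RNA sensor, by 0.78, 1.39 and 0.55 (SE 0.05).

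Rsad2 encodes viperin, which makes a chain-terminating nucleotide. Its log2 signals were 8.0, 7.80 and 7.80 in control, 11.75, 11.76 and 11.76 in FL, 11.11, 11.08 and 10.96 in mutB1, and 10.61, 10.59 and 10.59 in ΔSAP. All 4 lines were separate, with FL highest and ΔSAP lowest of the construct lines. Rsad2 thus rose over control by 3.89, 3.19 and 2.73 (SE 0.06, adjusted p 5.81e-11, 3.17e-10 and 8e-10). Cmpk2, the nucleotide kinase encoded next to Rsad2, rose by 2.73, 2.66 and 2.03 (SE 0.06). Bst2, or tetherin, which holds budding virions at the cell surface, rose by 2.32, 2.06 and 1.71 (SE 0.04). Ifitm3, which blocks fusion of viral with endosomal membranes, had the smallest rises, 0.26, 0.21 and 0.24 (SE 0.03, adjusted p 0.000185, 0.00116 and 0.000429). It already had a mean log2 signal of 12.99 in control. With the spread estimated from the compared lines alone, its calls in mutB1 (adjusted p 0.016) and ΔSAP (0.0109) were lost, as was that of Slfn2 in ΔSAP (0.0159).

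The ISG15 pathway attaches the ubiquitin-like Isg15 to proteins in 3 enzymatic steps. Uba7, the activating enzyme, had log2 signals of 7.86, 8.01 and 7.91 in control, 8.79, 8.88 and 8.76 in FL, 9.34, 9.29 and 9.34 in mutB1, and 8.49, 8.33 and 8.45 in ΔSAP. Here mutB1, not FL, was highest, with no overlap between lines. Relative to control, Uba7 rose by 0.88, 1.40 and 0.49 (SE 0.06, adjusted p 1.03e-06, 4.61e-08 and 0.00011). Ube2l6, the conjugating enzyme, rose by 2.12, 2.04 and 1.25 (SE 0.06), and Herc6, the main mouse ligase, by 1.85, 1.94 and 1.36 (SE 0.06). Trim25, a ligase known for its part in the activation of the RNA sensor RIG-I, rose by 0.80, 0.70 and 0.55 (SE 0.04).

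Of the other Trim ligases, Trim30d had log2 signals of 4.38, 4.16 and 4.45 in control, 7.57, 7.65 and 7.56 in FL, 6.67, 6.43 and 6.24 in mutB1, and 5.26, 5.56 and 5.34 in ΔSAP. The lines were separate, but the control and ΔSAP means were low in the sense above. The changes over control were 3.26, 2.12 and 1.06 (SE 0.12, adjusted p 1.72e-08, 5.39e-07 and 8.9e-05). Its relative Trim30a, a regulator of inflammatory signalling, rose by 2.96, 2.90 and 2.28 (SE 0.05). Trim21, the cytosolic antibody receptor, rose by 1.03, 1.24 and 0.82 (SE 0.04).

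Parp9 and Dtx3l form a complex of an ADP-ribosyltransferase and a ubiquitin ligase. Parp9 rose by 1.25, 1.28 and 0.93 (SE 0.04) and Dtx3l by 1.12, 0.96 and 0.82 (SE 0.04). Parp14, a mono-ADP-ribosyltransferase, rose by 1.79, 1.73 and 1.45 (SE 0.05), and Parp12, a zinc-finger member, by 1.13, 1.09 and 0.72 (SE 0.03). Xaf1, a pro-apoptotic factor, rose by 2.09, 2.01 and 1.47 (SE 0.08). Tor3a, an ATPase of the endoplasmic reticulum, rose by 1.69, 1.78 and 1.27 (SE 0.04), Rtp4, a receptor transporter, by 1.40, 1.46 and 1.26 (SE 0.06), and Ifi35 by 1.16, 1.01 and 0.78 (SE 0.04). Lgals3bp, a secreted galectin-binding glycoprotein, rose by 0.63, 0.56 and 0.49 (SE 0.04), and Slfn2, a Schlafen protein of T-cell quiescence, by 0.57, 0.94 and 0.26 (SE 0.04).

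Ifi44l, an interferon-induced gene closely related to Ifi44, had the largest rise of the 39 in FL and in mutB1. Its log2 signals were 5.96, 5.66 and 5.48 in control, 10.65, 10.71 and 10.67 in FL, 10.14, 10.20 and 9.87 in mutB1, and 8.87, 8.86 and 8.98 in ΔSAP. The 4 lines were separate, with the control mean low. Ifi44l rose over control by 4.98, 4.37 and 3.20 (SE 0.12, adjusted p 1.17e-09, 2.72e-09 and 3.19e-08), and the first is a 31.5-fold difference.

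Epsti1, an interferon-induced gene first described in epithelial cells next to stroma, was the exception in mutB1. Its log2 signals were 6.07, 6.14 and 6.13 in control, 8.74, 8.73 and 8.86 in FL, 6.59, 6.67 and 6.28 in mutB1, and 7.36, 7.46 and 7.58 in ΔSAP. All mutB1 arrays were above all control arrays, whose mean was low, and below all ΔSAP arrays. The changes over control were 2.66 in FL and 1.36 in ΔSAP (SE 0.10, adjusted p 1.73e-08 and 3.53e-06). The change of 0.40 in mutB1 had an adjusted p of 0.0133.

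**Figure D3:**
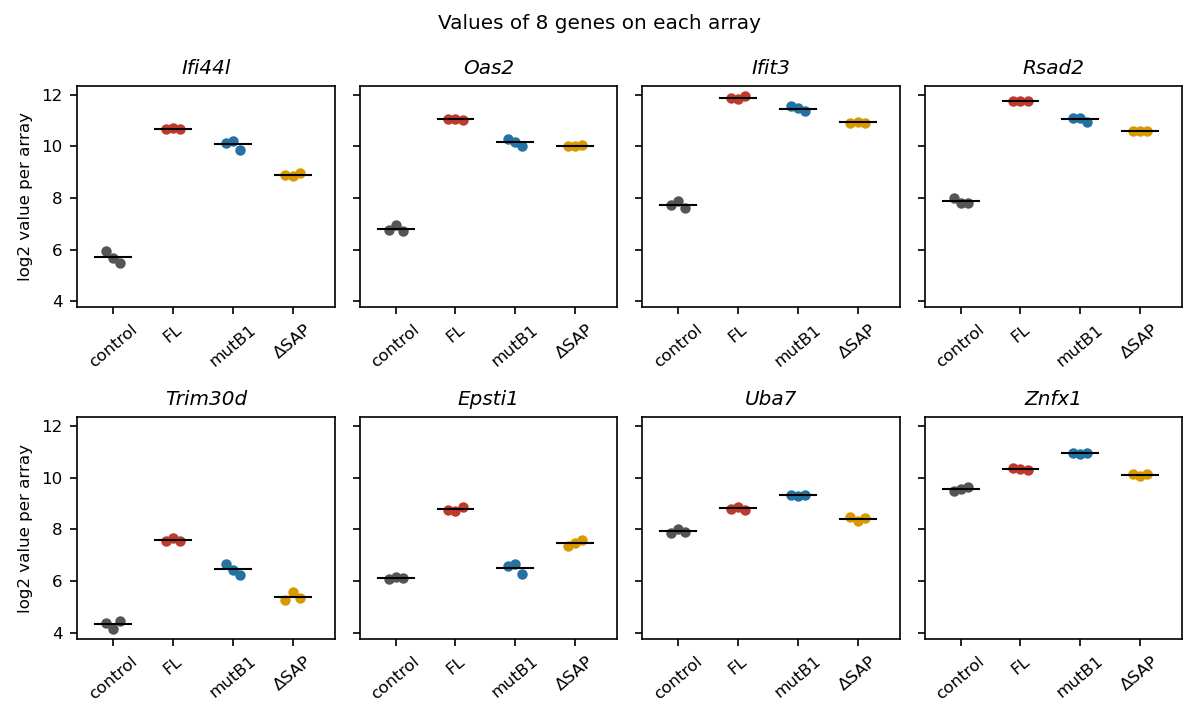
Log2 signal of each array (points) and line mean (horizontal lines) for 8 of the 39 genes in the control, FL, mutB1 and ΔSAP lines. Ifi44l, Oas2, Ifit3, Rsad2 and Trim30d were highest in FL, Epsti1 in mutB1 lay between control and ΔSAP, and Uba7 and Znfx1 were highest in mutB1, Znfx1 being a gene picked after its values were seen.

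FL against mutB1, a comparison named in the design text, asks which genes depend on an intact B1 region. Of the 39 genes, 11 were higher in FL and 5 were higher in mutB1, against 8.82% and 9% of all probe sets. The median difference was 0.08, and it was 0.028 after median centring and 0.12 without mutB1 replicate 1. Epsti1 had the largest difference, 2.26 (SE 0.10, adjusted p 7.3e-08), followed by Trim30d with 1.14 (SE 0.12, 4.16e-05). Only these 2 genes passed the design text's filters, against 0.972% of probe sets higher and 0.627% lower by them.

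The next differences in favour of FL were 0.90 for Oas2 (SE 0.08, adjusted p 1.26e-05), 0.70 for Rsad2 (SE 0.06, 9.32e-06) and 0.61 for Ifi44l (SE 0.12, 0.00306). Oasl1, Oas3, Ifit3, Ifit2, Bst2 and Isg20 were also higher in FL, by 0.22 to 0.49. The 5 genes higher in mutB1 were Znfx1, where FL minus mutB1 was -0.61 (SE 0.05, adjusted p 4.79e-06), Uba7 with -0.51 (SE 0.06, 6.69e-05), Slfn2 with -0.37 (SE 0.04, 0.000108), Helz2 with -0.26 (SE 0.06, 0.00646) and Trim21 with -0.22 (SE 0.04, 0.00199). The signals of Znfx1 were 9.49, 9.55 and 9.66 in control, 10.37, 10.35 and 10.31 in FL, 10.97, 10.92 and 10.96 in mutB1, and 10.13, 10.08 and 10.14 in ΔSAP. Its arrays showed no overlap between lines.

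Some of these calls were lost when 1 array was left out. The call of Ifi44l was lost without any one of the FL arrays or without mutB1 replicate 3 (adjusted p up to 0.0139), that of Oas3 without mutB1 replicate 3 (0.0103), and that of Trim21 without FL replicate 1 (0.0103). Isg20 lost its call without any one FL or mutB1 array or without ΔSAP replicate 2, and Helz2 without any one FL array, mutB1 replicates 1 or 2, control replicate 3 or ΔSAP replicate 1. Over all alternatives their adjusted p reached 0.0318 and 0.0287. Without FL replicate 1, 3 genes were called higher in mutB1. With only the compared lines in the fit, Ifit2 lost its call (adjusted p 0.0123), as did Isg20, Helz2 and Trim21.

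FL against ΔSAP, the other comparison of the design text, asks which genes depend on the SAP domain. Here 30 of 39 genes were higher in FL, against 5.73% of all probe sets, and 0 were lower, against 5.7%. The median difference was 0.42, and that of all probe sets 0.03. Past the design text's filters were 5 genes, against 0.216% of probe sets higher and 0.288% lower. They were Trim30d with 2.20 (SE 0.12, adjusted p 1.64e-06), Ifi44l with 1.77 (SE 0.12, 6.01e-06), Epsti1 with 1.31 (SE 0.10, 1.11e-05), Rsad2 with 1.16 (SE 0.06, 1.21e-06) and Oas2 with 1.03 (SE 0.08, 1.38e-05). Differences under 2-fold followed for Ifit3 (0.96), Oas3 (0.88), Ube2l6 (0.87), Oasl1 (0.82), Ifit2 (0.73), Cmpk2 (0.70) and Trim30a (0.69).

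By role, all 4 genes of ISG15 conjugation, all 3 other Trim ligases and all 4 Parp and Dtx3l genes were higher in FL than in ΔSAP. The same held for 4 of 8 genes of the Oas and double-stranded RNA group. With only the compared lines in the fit, 25 genes were higher in FL, and the calls of Uba7 (adjusted p 0.0116), Trim25 (0.0167) and Dtx3l (0.0109) were lost, with that of Trim21, so that none of these 3 groups was then called throughout. The 9 genes not called were Samd9l, Ifit1, Oas1a, Oasl2, Rtp4, Eif2ak2, Adar, Lgals3bp and Ifitm3. Their differences ranged from -0.07 for Eif2ak2 to 0.47 for Samd9l (adjusted p 0.0124), and a missed threshold does not show that the lines were alike. Eif2ak2, with a 95% interval of -0.21 to 0.07, was the 1 gene whose difference was below 0.

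The smallest called differences were Trim21 (0.21), Isg20 (0.22) and Znfx1 (0.23). Trim21 lost its call without any one FL or ΔSAP array. Isg20 lost it without any one FL or ΔSAP array, control replicate 1 or mutB1 replicates 1 or 2, and Znfx1 without any one FL or ΔSAP array, control replicate 2 or mutB1 replicates 1 or 3. Over all alternatives the adjusted p reached 0.0419, 0.0338 and 0.0514 in turn. Median centring also ended these 3 calls and that of Trim25.

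ΔSAP against mutB1 compares the altered constructs directly, which tests whether the differences from FL are unequal. In ΔSAP 24 of 39 genes were lower than in mutB1, against 8% of all probe sets, and 1, Epsti1, was higher, against 7.07%. The median difference was -0.35. Ifi44l, with -1.17 (SE 0.12, adjusted p 4.54e-05), and Trim30d, with -1.06 (SE 0.12, 8.31e-05), passed the design text's filters, against 0.541% of probe sets lower and 0.883% higher. Uba7 followed with -0.90 (SE 0.06, 1.31e-06), Znfx1 with -0.83 (SE 0.05, 5.22e-07), Helz2 with -0.81 (SE 0.06, 3.82e-06) and Ube2l6 with -0.80 (SE 0.06, 3.46e-06). Epsti1 went the other way, with 0.96 (SE 0.10, 4.24e-05).

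Calls of small differences were again lost with 1 array fewer. Oas3 lost its call without replicate 1 or 2 of either line (adjusted p up to 0.0113), and Oasl1 without these or ΔSAP replicate 3 (0.0183). Parp14 lost it without mutB1 replicate 1 or 2 or ΔSAP replicate 1 or 3, and Ifi35 without replicate 1 or 3 of either line. Their adjusted p reached 0.0205 and 0.0272 with only the compared lines in the fit. Without mutB1 replicate 1, a single gene passed the design text's filters.

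**Figure D4:**
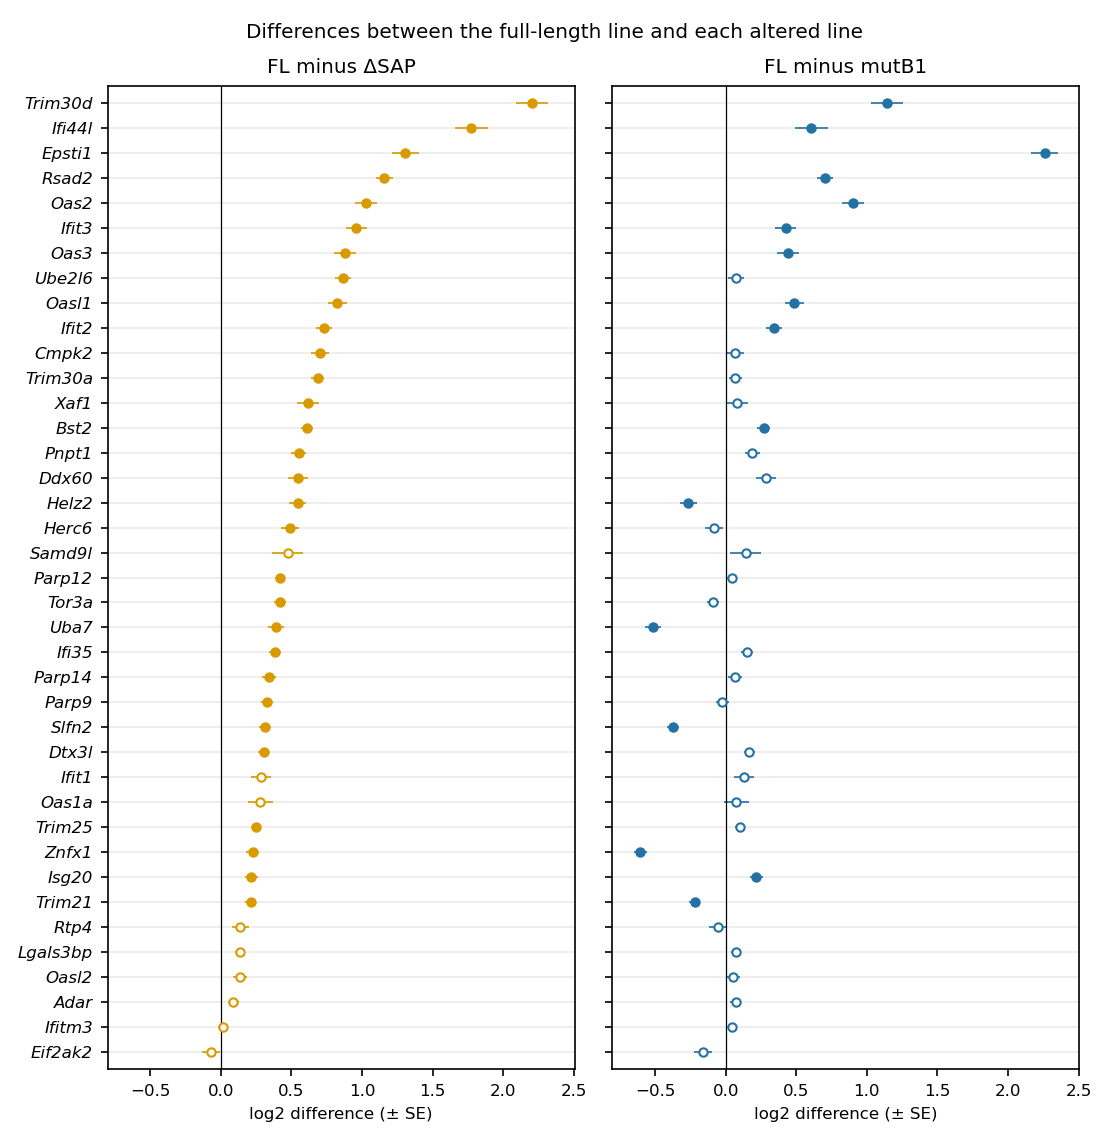
Difference between construct lines for each of the 39 genes in log2 units, as FL minus mutB1 and FL minus ΔSAP, with SE bars. Filled points have an adjusted p of at most 0.01; Epsti1 and Trim30d lie farthest to the right against mutB1, and 38 of the 39 genes lie above 0 against ΔSAP.

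Ranked by the size of FL minus mutB1, the order began with Epsti1, Trim30d, Oas2, Rsad2 and Ifi44l and ended with Trim21, Helz2, Slfn2, Uba7 and Znfx1. Ranked by FL minus ΔSAP, it began with Trim30d, Ifi44l, Epsti1, Rsad2 and Oas2. The 2 rankings share the FL arrays, so their common members are not independent. Over all 39 genes, the log2 rise in mutB1 was a median of 94.2% of that in FL (range 15.1% for Epsti1 to 178% for Znfx1). In ΔSAP the median was 74.1% (range 32.4% for Trim30d to 106% for Eif2ak2). These ratios describe the line means and carry no test. The FL rise is their denominator, so they are least certain for genes with a small FL rise. For Trim30d, whose control and ΔSAP means were low, and for Epsti1 and Ifi44l, whose control means were low, the ratio is taken against values that may be background.

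The 39 genes fell into a few orders of line means. In 27 the order was FL, mutB1, ΔSAP, control from high to low. In 9, namely Herc6, Tor3a, Rtp4, Helz2, Parp9, Trim21, Uba7, Znfx1 and Slfn2, mutB1 came before FL. Epsti1 and Ifitm3 had ΔSAP above mutB1, and Eif2ak2 had mutB1, ΔSAP, FL. Neighbours in these orders were often not separable.

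By the calls between construct lines, ΔSAP was lower than both FL and mutB1 in 24 genes, against 2.17% of all probe sets. In 11 of these FL and mutB1 were not called different, namely Trim30a, Cmpk2, Ube2l6, Xaf1, Herc6, Parp14, Tor3a, Parp9, Ifi35, Pnpt1 and Parp12. In 8, namely Ifi44l, Ifit3, Rsad2, Oas3, Trim30d, Oasl1, Ifit2 and Bst2, FL was also above mutB1. In the other 5, Helz2, Trim21, Uba7, Znfx1 and Slfn2, mutB1 was also above FL.

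Oas2 and Isg20 were higher in FL than in both other construct lines, which were not called different from each other. For Ddx60, Dtx3l and Trim25 the call was of FL above ΔSAP alone, and Epsti1 had FL above ΔSAP above mutB1. The 9 genes named above as not called against ΔSAP were not called in any comparison of construct lines.

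The genes also moved together between arrays of a line, so they are not independent measurements. Control replicate 2 was the highest control array for 31 of 39 genes, against 32.4% of all probe sets, and mutB1 replicate 3 the lowest mutB1 array for 35, against 31.4%. The median SD of a gene was 0.0853 for control, 0.0321 for FL, 0.0569 for mutB1 and 0.034 for ΔSAP. These spreads are small beside the rises over control and of a size with the smaller differences between construct lines.

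The other genes, those of the interferon pathway among them, came from lists written with earlier results of these data known. Of the 119 genes in these lists, 102 had a probe set. Of 15 interferon ligand genes, 0 rose and 0 fell in any of the 6 comparisons, and 13 of 15 had low means in every line. Ifnb1, the gene of interferon beta, had means of 4.86 in the control line, 4.84 for FL, 4.83 for mutB1 and 4.81 for ΔSAP. At this level the arrays cannot tell a silent gene from a weakly expressed one, and no interferon protein was measured.

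Of 9 receptor and kinase genes, 1 rose and 3 fell in FL over control, 0 rose and 1 fell in mutB1, and 1 rose and 2 fell in ΔSAP. Over all probe sets the shares were 9.61% higher and 10.4% lower in FL, 5.83% and 6.89% in mutB1, and 6.96% and 7.83% in ΔSAP, which are also those to set beside the lists that follow. Counts of 0 or 1 among 9 genes are near these shares. Ifnlr1, the type III interferon receptor chain, rose by 0.46 in FL and 1.28 in ΔSAP (SE 0.07) from a low control mean. Its FL mean, 6.08, was also low, so both values of the FL rise may be background. The kinase Tyk2 fell by 0.69 in FL, 0.76 in mutB1 and 0.56 in ΔSAP (SE 0.05). Jak2 fell by 0.86 in FL and 0.59 in ΔSAP (SE 0.04), and Ifnar1 by 0.32 in FL (SE 0.03).

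Among 14 Stat, Irf and feedback genes, 8 rose and 1 fell in FL, 8 rose and 0 fell in mutB1, and 5 rose and 1 fell in ΔSAP. Usp18, which removes Isg15 and dampens the receptor, rose by 2.75, 2.53 and 2.30 (SE 0.07) in FL, mutB1 and ΔSAP. Irf7, a factor that amplifies interferon transcription, rose by 2.19, 2.09 and 1.87 (SE 0.05). Stat2 rose by 1.40, 1.50 and 1.15 (SE 0.03), and Irf9 by 0.49, 0.64 and 0.60 (SE 0.04). Irf5 rose by 1.26 in FL and 0.96 in mutB1 (SE 0.09), and Irf8 by 0.96 in ΔSAP (SE 0.06).

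Of 16 nucleic acid sensors and adaptors, 8 rose and 0 fell in FL, 9 rose and 1 fell in mutB1, and 7 rose and 3 fell in ΔSAP. Zbp1, a sensor of left-handed nucleic acid helices, rose by 3.87, 3.96 and 2.59 (SE 0.05). The RNA sensor Ifih1 rose by 2.40, 1.97 and 2.16 (SE 0.06), its regulator Dhx58 by 1.96, 1.89 and 1.28 (SE 0.08), and Tlr3 by 1.49, 1.30 and 1.37 (SE 0.06).

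All 9 measured interferon-inducible GTPases, which attack viral capsids and the membranes of intracellular pathogens, rose in each construct line, with median changes of 3.14 in FL, 2.46 in mutB1 and 1.95 in ΔSAP. Mx2 rose by 4.01, 3.61 and 3.03 (SE 0.18), Mx1 by 3.92, 3.76 and 1.95 (SE 0.11), and Iigp1 by 3.74, 4.37 and 1.98 (SE 0.10). The control means of these 3 genes, 5.62, 4.96 and 5.08, were low, as was that of Gbp5, so the sizes of their rises and the order among them are against values that may be background. In ΔSAP all 9 were lower than in FL and 8 lower than in mutB1, while FL against mutB1 gave 3 higher and 1 lower. Of the whole list of 16 GTPases, 10 had promoter windows, and the spaced GAAA pair was in 9 of these 11 windows (81.8%). That list includes genes without a probe set, so this share is not of the 9 measured genes alone. The pair was also in 11 of 20 windows of the 20 listed interferon ligand genes (55%). Of these genes 15 had a probe set, and none of the 15 was called.

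**Figure D5:**
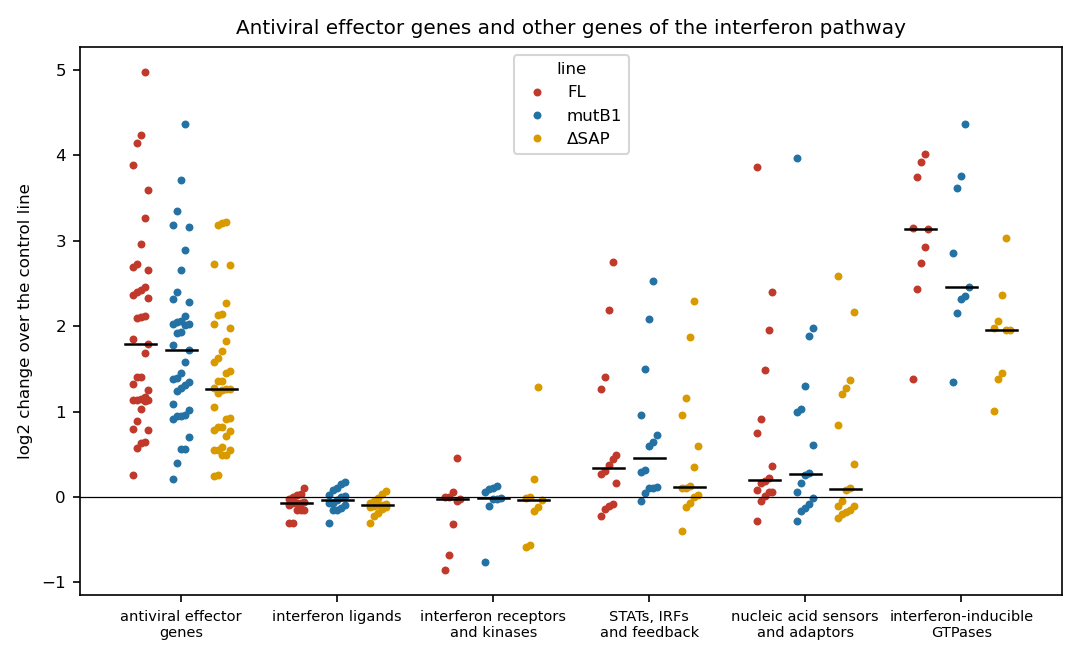
Change over control of each measured gene of the pathway lists (points) in FL, mutB1 and ΔSAP, with the list medians as lines, in log2 units. The GTPase list has medians of 3.14, 2.46 and 1.95, while no ligand gene was called.

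Mrtfa, the gene of the constructs, had means of 9.27 in the control line, 12.08 for FL, 11.29 for mutB1 and 11.92 for ΔSAP. It rose by 2.81, 2.01 and 2.64 (SE 0.06), and was lower in mutB1 than in FL by 0.79 (adjusted p 2.79e-06), while FL and ΔSAP differed by 0.16 (SE 0.06, adjusted p 0.0776). Its order of line means, FL, ΔSAP, mutB1, control, was that of Epsti1 and Ifitm3 among the 39 genes, and differed from that of the other 37. These are orders of means only, since Ifitm3 was not called between any construct lines and neighbours in many other orders were not separable. The sources used here do not say whether the probes lie in parts that the constructs keep.

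The labelled cell type was checked against marker lists. Of 11 leukocyte markers, 9 to 10 were low in each line, with array means of the list between 5.24 and 5.38, and 1, Cd68, rose in FL (0.67, SE 0.10). All 6 endothelial markers were low in every line. The epithelial keratins Krt8 and Krt18 were well above the array medians in all lines. Cldn7 was low in all lines, and Krt19 was low in mutB1, with a mean of 6.18. In mutB1 6 of 8 epithelial markers fell, among them Epcam by 2.03 and Krt7 by 2.38, though the call of Krt18 was lost with only the compared lines fitted (adjusted p 0.032). Of 8 fibroblast markers, only 2 to 3 were low in each line, and Pdgfra had a mean of 10.76 in control. In mutB1 2 of the 8 rose and 0 fell, Pdgfrb by 3.45 (SE 0.10) and Fbln1 by 2.61 (SE 0.05), and the other 6 were not called. In FL and in ΔSAP 1 fibroblast marker, Fbln1, rose, and 2, Pdgfra and Pdgfrb, fell. In ΔSAP 5 of 8 epithelial markers rose, Epcam by 1.70, and in FL 3 rose and 2 fell. The part of these differences in those of the 39 genes was not tested.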

How the data were processed

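The 39 genes and the pathway lists were chosen with earlier results of these data known. The authors deposited log2 expression values per probe set, made with RMA by the affy package of Bioconductor 2.4 per the series' design text, with R 2.10.0 per the submitters' processing notes. The sources used here give no probe set definition, batches or build. Of 34760 probe sets, GEO's platform annotation gave 21640 a single symbol, 1321 several and 11799 none, and 21553 of the first were updated through Entrez identifiers with RefSeq (GRCm38.p6). Groups came from the labels' titles.

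A limma 3.58.1 model (R 4.3.3, lmFit and eBayes) of 4 line means was fitted to all 12 arrays, with Benjamini-Hochberg adjustment over 34760 probe sets in each of 6 comparisons. The script was tested on simulated data. Arrays of one line correlated at 0.995 to 0.997, of different lines at 0.988 to 0.995. The number of arrays limits the precision, here 3 per line. Array values are given for genes among the 4 largest called changes of a comparison, and for Znfx1, chosen after its values were seen. Of the lists, only some of the called changes are named, mostly among the largest, with Mrtfa, Ifnb1, Stat2, Irf7 and Irf9 in any case. A list of RNase L and its regulators is not described.

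Replicate numbers were checked for pairing. The deviations of same-numbered arrays correlated at -0.205 to 0.168, with 2 of 18 pairs over 0.1. Those of differently numbered arrays correlated at -0.161 to 0.271, with 7 of 36 pairs over 0.1. These values gave no sign of pairing by number, but weak correlations cannot show that it was absent. Alternatives were median centring, a further quantile normalization, the replicate block, only the compared lines, trended and robust eBayes, minimum means of 4 and 6, the mean of a gene's probe sets, an adjusted p of 0.05, and leaving out each array.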

Additional observations from a re-analysis of the deposited data

How the results depend on the processing

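No member's change reversed in sign with a call under any alternative. Of the recomputed changes, 4781 stayed on the same side of the threshold, 89 lost and 38 gained a call. The signs of changes without a call in either fit were not compared, and small ones can change sign. Median centring moved the median change in FL over control from 1.79 to 1.74 and in FL against mutB1 from 0.08 to 0.028. It shifted the median of all probe sets by 0.05 or less. With only the compared lines in the fit, 3 genes in place of 5 were lower in FL than in mutB1. With a minimum mean of 6, the genes past the design text's filters went from 2 to 1 in FL against mutB1 and in ΔSAP against mutB1; the excluded gene, Trim30d, had a mean of 5.94. Leaving out 1 array at a time, the median change in ΔSAP over control was 1.22 to 1.32, that in FL against mutB1 0.053 to 0.12, the genes lower in FL than in mutB1 3 to 5, and those past the filters in ΔSAP against mutB1 1 to 3. The cause was not tested. The replicate numbers gave no sign of pairing, and 3 of 12 arrays correlated best with their own number. With the replicate block, FL against mutB1 gave 10 genes higher and 4 lower, and 27 were higher in FL than in ΔSAP. The other counts with the block were those of the report. Signals near the low end, such as Trim30d in control, limit what the arrays show.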
